A study of Homo sapiens with 32 samples.

Results

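AXL, MERTK and TYRO3 are the 3 receptor tyrosine kinases of the TAM family, and GAS6 and PROS1 encode their ligands, growth arrest specific 6 and protein S. The members were chosen by gene symbol: every probe of the value table that the platform annotation assigns to one of these 5 genes. This gave 5 genes of 16920 named on the array and 8 probes of 24518, with 2 for AXL, 3 for GAS6 and 1 each for MERTK, TYRO3 and PROS1. No measured value entered this assignment of probes, but the 5 genes were chosen with earlier results of these data known.

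TAM ligands are bridging proteins. One end, rich in carboxylated glutamate that needs vitamin K, binds phosphatidylserine on dying cells or shed membrane, and the other end binds the receptor on a phagocyte. Receptor signalling drives the uptake of apoptotic cells (efferocytosis) and damps Toll-like receptor and cytokine signalling in macrophages and dendritic cells. MERTK is the receptor best known for efferocytosis by macrophages, and AXL, for which GAS6 is the ligand, is known to be induced by inflammatory stimuli. TYRO3 and MERTK bind both ligands.

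The cells were THP-1, an established human monocytic leukaemia line, and RNA was taken after 24 h. The groups were LPS at 100 ng/ml with TGFβ1 at 1 ng/ml (LPS+TGFβ1), TGFβ1 alone, LPS alone, and PBS as the control, with 8 arrays in each. LPS, from the outer membrane of bacteria, acts through TLR4, and TGFβ1 is a cytokine that signals through SMAD proteins. The study asked what the joint activity of both pathways does. All groups are 1 cell line, and the labels do not tell whether each array had its own culture. The p-values therefore measure only how these arrays vary, and that variation may be technical.

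The 32 arrays lay on 4 chips with 2 arrays of each group per chip, and 12136 to 13488 probes were above background on an array. A group always sat at the same chip positions, and 4 position labels of LPS+TGFβ1 arrays also stand on TGFβ1 arrays, so the effects of treatment and of position on the chip cannot be told apart. The arrays were split into 2 sets by the sign of the leading component of their deviations from the group means, which held 42.3% of the residual variance. Each group was centred on its own mean, so every group holds both sets by construction. Set 2 held 18 arrays, among them all of chip 3, and set 1 held 14 arrays, among them all of chip 2, while chips 1 and 4 held both. The component was computed from all tested probes, the members included, so the position of a member between sets is a description. Differences within a set are likewise given with no error or test, since arrays sorted on these values vary less than arrays at large. What the sets stand for was not tested. Of 9 monocytic markers on the array, 8 were above background on all 32 arrays, and of 9 markers of other lineages 2 were (NKG7 and PECAM1) and 4 were on none.

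The promoters of 4 members are shown because AXL and MERTK rose together while GAS6 and PROS1 did not rise with them. The sequences are the 250 bases before a RefSeq transcription start, on the build GRCh38.p14, read 5′ to 3′ on the strand of the gene. Capitals mark matches on either strand to 4 motifs: TGANTCA for AP-1, CAGAC for SMAD proteins, GGGCGG for the GC box and, for interferon response factors, GAAA, any 2 bases and GAAA again.
AXL, chr19:41218973-41219222, plus strand: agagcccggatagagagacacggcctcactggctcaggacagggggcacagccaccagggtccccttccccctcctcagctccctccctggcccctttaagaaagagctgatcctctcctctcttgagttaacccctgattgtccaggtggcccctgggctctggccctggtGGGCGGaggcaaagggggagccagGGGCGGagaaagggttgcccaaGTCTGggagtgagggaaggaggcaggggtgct
MERTK, chr2:111898357-111898606, plus strand: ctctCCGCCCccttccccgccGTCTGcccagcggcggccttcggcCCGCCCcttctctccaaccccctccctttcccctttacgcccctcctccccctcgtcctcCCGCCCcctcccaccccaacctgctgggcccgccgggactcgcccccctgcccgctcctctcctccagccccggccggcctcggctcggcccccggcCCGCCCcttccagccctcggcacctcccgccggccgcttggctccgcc
GAS6, chr13:113864077-113864326, minus strand: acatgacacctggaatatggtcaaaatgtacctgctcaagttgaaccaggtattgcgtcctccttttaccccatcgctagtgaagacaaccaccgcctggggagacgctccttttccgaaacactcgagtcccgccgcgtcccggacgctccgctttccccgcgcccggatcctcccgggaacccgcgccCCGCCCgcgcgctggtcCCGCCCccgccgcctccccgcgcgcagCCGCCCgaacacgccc
PROS1, chr3:93973897-93974146, minus strand: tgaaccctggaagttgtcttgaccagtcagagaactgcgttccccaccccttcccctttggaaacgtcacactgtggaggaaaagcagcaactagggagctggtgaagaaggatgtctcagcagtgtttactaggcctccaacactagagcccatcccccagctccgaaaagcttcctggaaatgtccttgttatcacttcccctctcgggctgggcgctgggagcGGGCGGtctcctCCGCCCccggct
The AXL window held 1 CAGAC on the opposite strand, 32 bases before the start, and 2 GC boxes. The MERTK window held 1 CAGAC on the opposite strand, 229 bases before the start, and 4 GC boxes. The GAS6 window held 3 GC boxes and the PROS1 window 2, and neither held CAGAC. No AP-1 or interferon response motif matched in these 4 windows. RefSeq gives AXL a second start, whose window held 2 CAGAC and 1 interferon response match, 188 bases before that start. TYRO3, which has 2 starts, had an AP-1 match 220 bases before the first of them, and no CAGAC at either. Of 35116 promoter windows of the same length, 38.0% held CAGAC, 42.6% a GC box, 6.57% the AP-1 motif and 3.02% the interferon response motif. A match is a description of letters, and no binding was measured here.

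Every member probe was above background on all arrays, except that TYRO3 was above it on 7 of 8 LPS arrays. AXL and MERTK were higher in every stimulated group than in PBS cells, and the ligand PROS1 fell in both groups that received LPS. GAS6 fell where LPS and TGFβ1 were given together, and TYRO3 fell in both LPS groups. The 3 comparisons with PBS share the same control arrays, so they are not independent of one another. In bulk RNA, a change in the number of expressing cells and a change in RNA per cell cannot be told apart.

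**Figure D1:**
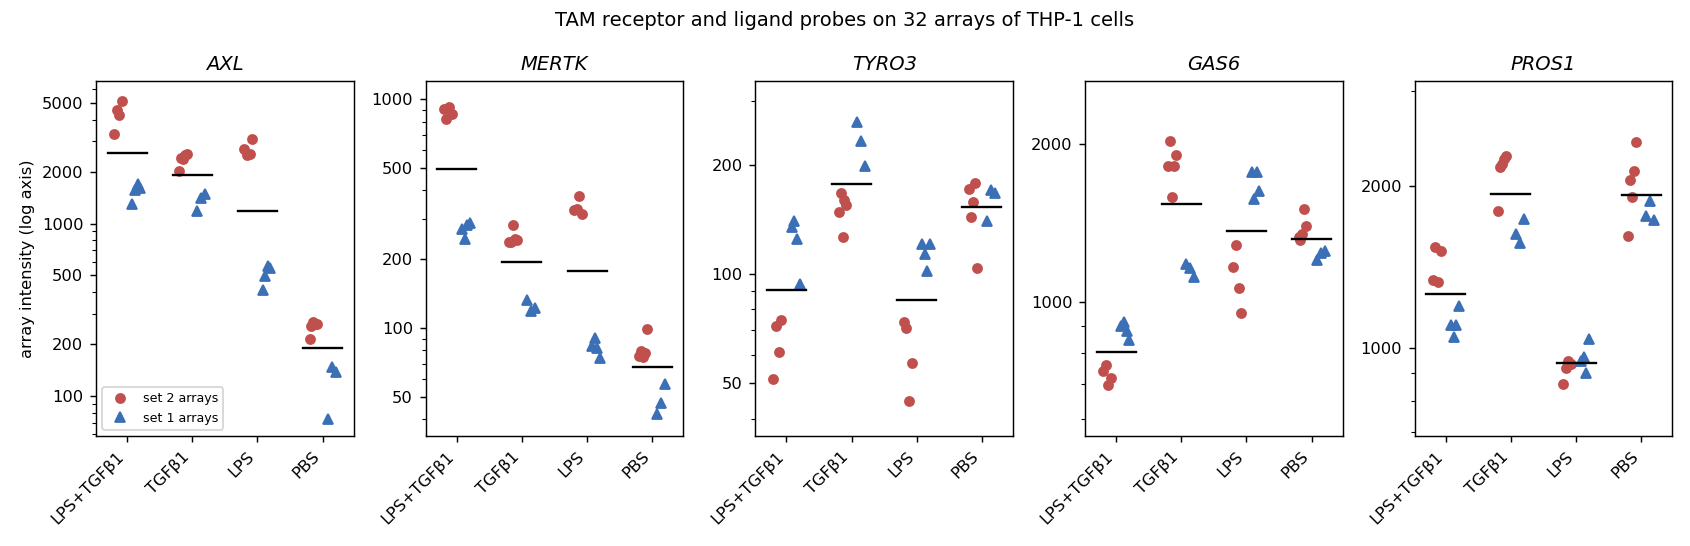
Array intensity (log axis) of AXL, MERTK, TYRO3, GAS6 and PROS1, 1 point per array, with the brightest probe of each gene; black bars are group means taken on the log2(intensity + 50) scale. Red circles are the 18 arrays of set 2 and blue triangles the 14 arrays of set 1; in AXL and MERTK the 2 sets lie apart in every group, and all stimulated AXL arrays lie above all PBS arrays.

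AXL, the receptor that binds GAS6, had the largest differences from PBS of the 5 genes. Its brighter probe (ILMN_1701877) had a lowest, median and highest intensity of 1295, 2493 and 5162 on LPS+TGFβ1 arrays, 1183, 2189 and 2531 on TGFβ1 arrays, 412, 1536 and 3095 on LPS arrays, and 73.1, 234 and 267 on PBS arrays. All 24 stimulated arrays lay above all 8 PBS arrays, while the 3 stimulated groups overlapped one another. The means were 2925 ± 1573 in LPS+TGFβ1 cells, 1986 ± 553 in TGFβ1 cells, 1607 ± 1190 in LPS cells and 202 ± 73.6 in PBS cells (SD, n = 8 each).

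Differences were tested with limma on log2(intensity + 50), a scale that understates the change of dim genes, with Benjamini-Hochberg adjustment over 18388 probes and a threshold of 0.05. On that scale AXL rose by 3.44 ± 0.38 (SE) in LPS+TGFβ1 cells compared with PBS (adjusted p = 2.54e-09), by 3.03 ± 0.38 in TGFβ1 cells (adjusted p = 1.6e-07) and by 2.36 ± 0.38 in LPS cells (adjusted p = 3.44e-06). The second AXL probe (ILMN_2364521), annotated to another RefSeq transcript, gave differences of 3.22, 2.84 and 2.17 for the same comparisons, each past the threshold. In the order of AXL levels, LPS+TGFβ1 and TGFβ1 did not differ past the threshold (0.41 ± 0.38, adjusted p = 0.488), nor did TGFβ1 and LPS (0.67 ± 0.38, adjusted p = 0.149), and LPS and PBS did. TGFβ1 and LPS did differ past it once arrays were blocked by replicate number (adjusted p = 0.0106), and for the second probe also with the chip as a block (0.0373). With the chip or the replicate number as a block, LPS+TGFβ1 and TGFβ1 still did not differ past it (adjusted p = 0.329 and 0.141). The array set as a block moved both differences past it. The sets were formed from these same values, AXL included, so no test is read from that block. AXL was 1.08 ± 0.38 higher in LPS+TGFβ1 cells than in LPS cells (adjusted p = 0.0412). The difference was positive on all 4 chips and lay between 0.88 and 1.27 when any 1 array was left out. Blocking by chip (adjusted p = 0.00846) or by replicate number (0.000363) kept the call. It was lost in the fit without a block when any of LPS replicates 1, 3, 4 and 7 or LPS+TGFβ1 replicates 2, 5, 6 and 8 was left out (adjusted p up to 0.0944, without LPS replicate 1). It was also lost when any 1 chip was left out (up to 0.145, without chip 2), when the other groups were left out of the fit (0.113) and when dim probes were not filtered (0.0507).

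The combined stimulus raised AXL by less than the log2 effects of the single stimuli add up to. The interaction, the LPS effect with TGFβ1 minus the LPS effect without it, was -1.95 ± 0.53 (adjusted p = 0.0185), and -1.80 ± 0.47 for the second probe (adjusted p = 0.0129). On the linear scale the LPS+TGFβ1 mean was 86.3% of the sum of the 2 single-stimulus differences and the PBS level, and 76.5 to 94.6% on the 4 chips. The call for the brighter probe was lost without chip 1, 3 or 4 (adjusted p 0.0661 to 0.0965) and kept with the chip as a block (0.00255).

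AXL split by set in every group. On LPS arrays its intensity was 2707 ± 271 in set 2 and 507 ± 69.3 in set 1 (SD, n = 4 each). On TGFβ1 arrays it was 2365 ± 212 in set 2 (n = 5) and 1353 ± 152 in set 1 (n = 3). Set 2 arrays lay above set 1 arrays in all 4 groups for both AXL probes. The difference between LPS and PBS was 3.19 within set 2 and 1.74 within set 1, and that between TGFβ1 and PBS was near 3 within set 2 and 3.08 within set 1. TGFβ1 minus LPS was -0.19 within set 2 and 1.34 within set 1.

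Because chip 3 held only set 2 arrays and chip 2 only set 1 arrays, treatment effects were compared between these chips, which the labels define, in 1 limma fit of 16 arrays. This fit was added after the values were seen, the chips were picked for their sets, and each has 2 arrays per group, so its p-values describe these 2 chips. The LPS effect on AXL was 3.05 on chip 3 and 1.59 on chip 2, a difference of 1.46 ± 0.13 (adjusted p = 4.1e-07). The TGFβ1 effect was 2.97 on chip 3 and 2.95 on chip 2, a difference of 0.02 ± 0.13 (adjusted p = 0.987). Over all members, 6 of 8 probes differed between these chips in the LPS effect, where 19.4% of all tested probes did, and 2 of 8 (both GAS6) in the TGFβ1 effect, where 0.604% did. In the effect of LPS+TGFβ1 compared with PBS 3 of 8 differed, against 14.8% of all tested probes, and in the effect of LPS+TGFβ1 compared with LPS also 3, against 8.01%. The interaction differed for 1 of 8, the brighter AXL probe (-0.76 ± 0.18, adjusted p = 0.0421), against 1.81%.

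MERTK, the receptor tied most closely to efferocytosis, was highest with both stimuli. Its lowest, median and highest intensities were 245, 553 and 926 on LPS+TGFβ1 arrays, 119, 238 and 284 on TGFβ1 arrays, 74.1, 204 and 380 on LPS arrays, and 42.2, 75.4 and 99.5 on PBS arrays. LPS+TGFβ1 and TGFβ1 arrays all lay above the PBS arrays, and LPS arrays overlapped them. MERTK was 2.21 ± 0.29 higher in LPS+TGFβ1 cells than in PBS cells (adjusted p = 1.39e-07), 1.27 ± 0.29 higher than in LPS cells (adjusted p = 0.00197) and 1.16 ± 0.29 higher than in TGFβ1 cells (adjusted p = 0.00216).

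The single stimuli each raised MERTK, TGFβ1 by 1.05 ± 0.29 (adjusted p = 0.0124) and LPS by 0.94 ± 0.29 (adjusted p = 0.00898). The TGFβ1 call was lost without chip 1, 3 or 4 (adjusted p 0.0535 to 0.059), and the LPS call was lost without chip 3 (0.0949). Blocking by chip kept both (adjusted p = 0.00121 for TGFβ1 and 0.00106 for LPS). The interaction for MERTK was 0.21 ± 0.42 (adjusted p = 0.852), and it was 0.07 within set 2 and 0.45 within set 1. On the linear scale the LPS+TGFβ1 mean was 167% of the summed single-stimulus differences and the PBS level, and 162 to 177% on the 4 chips.

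MERTK also split by set in every group. On LPS arrays it was 339 ± 27.9 in set 2 and 82.7 ± 6.95 in set 1 (SD, n = 4 each), and no array of one set reached the other. The rise of MERTK with LPS was 1.67 ± 0.11 on chip 3 and 0.42 ± 0.11 on chip 2 (adjusted p of the difference 1.41e-05). TGFβ1 minus LPS was 0.11 ± 0.29 for MERTK over all arrays (adjusted p = 0.784), -0.38 within set 2 and 0.40 within set 1.

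TYRO3, the TAM receptor best known from the nervous system, fell with LPS. Its lowest, median and highest intensities were 51.3, 84.3 and 140 on LPS+TGFβ1 arrays, 127, 164 and 262 on TGFβ1 arrays, 44.8, 88.0 and 121 on LPS arrays, and 104, 163 and 179 on PBS arrays. TYRO3 fell by 0.53 on the log2 scale in LPS+TGFβ1 cells (adjusted p = 0.00226) and by 0.59 in LPS cells (adjusted p = 0.000779), each with an SE of 0.14 and compared with PBS, from which both groups overlapped at the edges. With TGFβ1 alone the difference was 0.17 ± 0.14 (adjusted p = 0.546). TYRO3 was lower in set 2 than in set 1 in every stimulated group, and its fall with LPS was 0.91 on chip 3 and 0.47 on chip 2 on the log2 scale, a difference that missed the threshold (adjusted p = 0.103).

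GAS6, the ligand with the highest affinity for AXL, was lower with both stimuli than in any other group. The brightest GAS6 probe (ILMN_1784749) had a lowest, median and highest intensity of 697, 803 and 916 on LPS+TGFβ1 arrays, 1116, 1701 and 2025 on TGFβ1 arrays, 956, 1428 and 1770 on LPS arrays, and 1203, 1323 and 1505 on PBS arrays. Every LPS+TGFβ1 array lay below every array of the other groups, which overlapped among themselves. GAS6 fell by 0.68 on the log2 scale in LPS+TGFβ1 cells compared with PBS (SE 0.12, adjusted p = 2.39e-05), by 0.73 compared with LPS (adjusted p = 3.4e-05) and by 0.89 compared with TGFβ1 (adjusted p = 4.35e-07).

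Neither single stimulus moved GAS6 past the threshold over all arrays: the difference was 0.21 ± 0.12 with TGFβ1 (adjusted p = 0.329) and 0.05 ± 0.12 with LPS (adjusted p = 0.779). The interaction for GAS6 was -0.94 ± 0.17 (adjusted p = 0.000426), and the LPS+TGFβ1 mean was 48.8% of the summed linear differences and the PBS level. The second bright probe (ILMN_1779558) gave -0.96 ± 0.18 (adjusted p = 0.000525). The third (ILMN_1768260), with a mean of 64.5 ± 11.9 on LPS+TGFβ1 arrays and 127 ± 30.3 on PBS arrays, gave -0.42 ± 0.20 and missed the threshold (adjusted p = 0.246).

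With LPS the brightest GAS6 probe differed from PBS by -0.30 within set 2 and 0.43 within set 1. With TGFβ1 the difference was 0.39 within set 2 and -0.09 within set 1. With both stimuli it was negative in both sets, -0.88 in set 2 and -0.45 in set 1. On the chips the LPS effect was -0.18 on chip 3 and 0.41 on chip 2, a difference of -0.59 ± 0.16 (adjusted p = 0.0176). The TGFβ1 effect on the other 2 GAS6 probes differed between chip 3 and chip 2 by 0.71 ± 0.14 (ILMN_1779558, adjusted p = 0.0187) and 0.83 ± 0.16 (ILMN_1768260, adjusted p = 0.0163), and on the brightest probe by 0.54 ± 0.16, which missed the threshold (adjusted p = 0.281).

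PROS1, which encodes protein S, a TAM ligand that is also an anticoagulant cofactor in plasma, fell with LPS and was partly higher when TGFβ1 was added. Its lowest, median and highest intensities were 1052, 1261 and 1540 on LPS+TGFβ1 arrays, 1572, 1986 and 2279 on TGFβ1 arrays, 860, 941 and 1040 on LPS arrays, and 1619, 1890 and 2409 on PBS arrays. LPS arrays lay below LPS+TGFβ1 arrays without overlap, and these lay below the TGFβ1 and PBS arrays without overlap. PROS1 fell by 1.00 on the log2 scale with LPS compared with PBS (SE 0.09, adjusted p = 3.01e-11) and by 0.59 with LPS+TGFβ1 (adjusted p = 1.58e-06), and it was 0.41 ± 0.09 higher in LPS+TGFβ1 cells than in LPS cells (adjusted p = 0.00105).

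With TGFβ1 alone PROS1 stood at 0.01 ± 0.09 relative to PBS (adjusted p = 0.972). The interaction was 0.40 ± 0.13 (adjusted p = 0.048). That call was lost when 1 of 21 arrays was left out: PBS replicates 3, 5, 6, 7 and 8, LPS replicates 1, 2, 3, 4, 5, 6 and 8, TGFβ1 replicates 1, 2, 3 and 4, and LPS+TGFβ1 replicates 2, 5, 6, 7 and 8 (adjusted p up to 0.0862). It was also lost when any 1 chip was left out (up to 0.217), at the smaller offset of 16 (0.0615), with no filter on dim probes (0.0689) and after quantile normalization (0.0677). Blocking by chip (0.00394) or by replicate number (0.00558) kept it. With LPS the PROS1 difference from PBS was -1.09 within set 2 and -0.86 within set 1, and its difference between chips 3 and 2 was -0.13 ± 0.14 (adjusted p = 0.599).

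**Figure D2:**
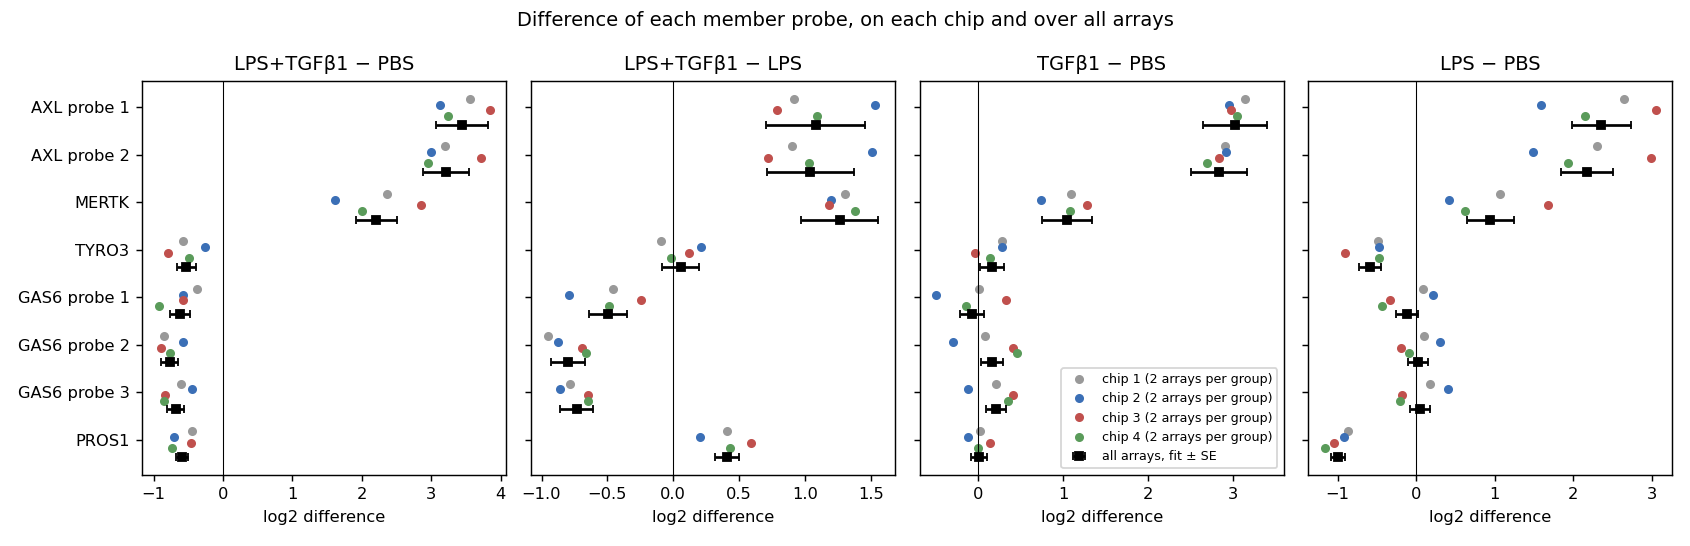
Log2 differences of each member probe for 4 comparisons: coloured points are the means on each chip (2 arrays per group), black squares the fit over all arrays with its SE. AXL probes 1 and 2 are ILMN_1701877 and ILMN_2364521, and GAS6 probes 1, 2 and 3 are ILMN_1768260, ILMN_1779558 and ILMN_1784749; the LPS effect on AXL runs between 1.59 on chip 2 and 3.05 on chip 3, while its TGFβ1 effect lies near 3 on all chips.

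Counted over the 8 member probes by limma's adjusted p, LPS+TGFβ1 compared with PBS had 3 higher and 5 lower, where 39.9% of all tested probes were called, 18% higher and 21.9% lower. TGFβ1 compared with PBS had 3 higher and 0 lower, against 13.2% of all tested probes, 7.54% higher and 5.7% lower. LPS compared with PBS had 3 higher and 2 lower, against 41.9%, 20.9% higher and 21% lower. LPS+TGFβ1 compared with LPS had 4 higher and 3 lower, against 18.3%, 8.19% higher and 10.1% lower, and compared with TGFβ1 it had 1 higher and 5 lower, against 31.5%, 14.9% higher and 16.5% lower. TGFβ1 compared with LPS had 2 higher and 0 lower, against 42.4%, 19.6% higher and 22.8% lower. The interaction was positive for 1 probe and negative for 4, against 7.28%, 2.82% higher and 4.46% lower. At an unadjusted p under 0.05 the counts of 0 lower stayed at 0. Probes of 1 gene share their transcripts, so these counts rest on 5 genes.

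The groups did not overlap at all for 7 of 8 member probes between LPS+TGFβ1 and PBS, where this held for 17.1% of all tested probes. It held for 3 between TGFβ1 and PBS (5.9% of all), 3 between LPS and PBS (18.6%), 3 between LPS+TGFβ1 and LPS (5.43%), 3 between LPS+TGFβ1 and TGFβ1 (13.8%) and 2 between TGFβ1 and LPS (19.3%). The median log2 difference of the members was -0.56 for LPS+TGFβ1, 0.19 for TGFβ1 and 0.04 for LPS, each compared with PBS, beside medians of -0.04, -0.04 and 0.05 over all tested probes.

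**Figure D3:**
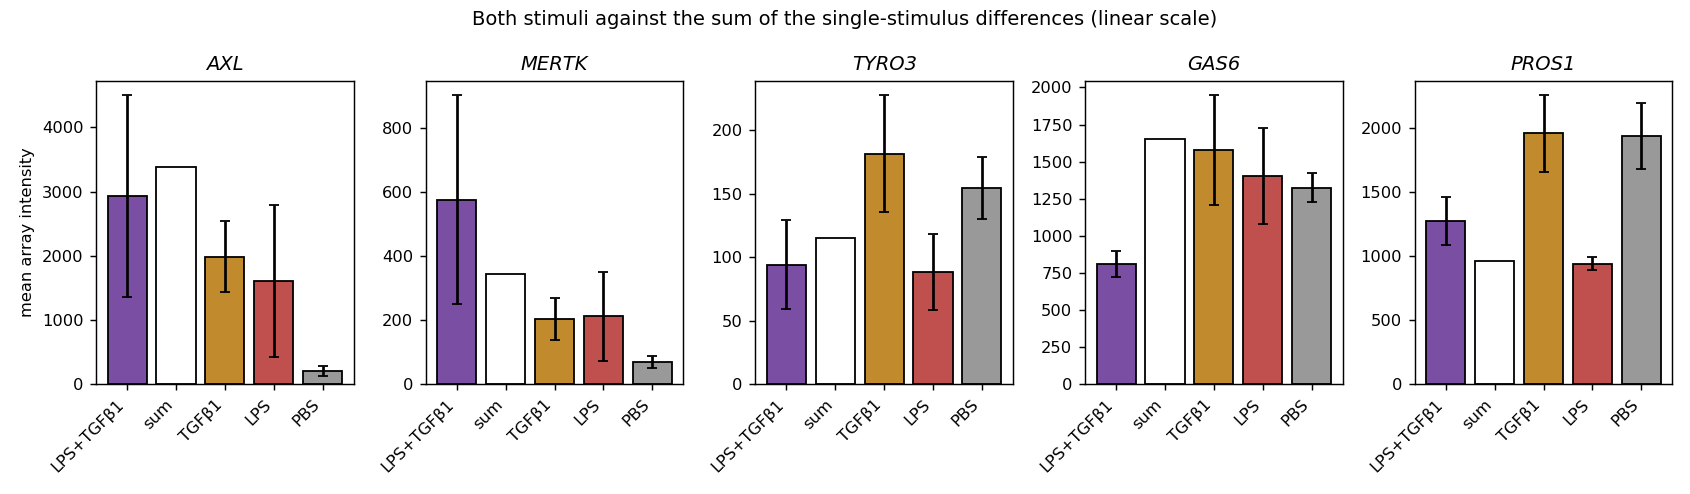
Mean array intensity (linear axis) of the brightest probe of each gene in the 4 groups, with SD over 8 arrays, and in white the sum of the TGFβ1 and LPS differences added to the PBS level, which has no error of its own. LPS+TGFβ1 stood at 86.3% of that sum for AXL, 167% for MERTK, 81.6% for TYRO3, 48.8% for GAS6 and 133% for PROS1. For TYRO3 the chips lay on both sides of the sum, from 63.3% on chip 1 to 123% on chip 3.

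The genes whose profile over the 32 arrays was most like that of a member are given as a description, since the arrays share treatments and sets. For AXL they were RAB31, TAGAP, PLOD1, TBC1D16 and CTSB (Pearson r of 0.97 to 0.94). RAB31 encodes a small GTPase of vesicle traffic and CTSB the lysosomal protease cathepsin B. For MERTK they were ABHD12, ANGPTL6, PLPP1, RUNX3 and DSE (0.97 to 0.95). ABHD12 encodes a lipase of lysophosphatidylserine and RUNX3 a transcription factor. For TYRO3 they were RYR1, PARVG, CITED4, RTL10 and ADGRL1 (0.94 to 0.92), and for PROS1 PRCP, GPR160, LRRC1, MRI1 and MAPRE2 (0.97 to 0.95). GAS6 had the lowest values, with S100P, GATA2, RAB3IL1, RFLNB and GNG4 at 0.89 to 0.81. S100P encodes a calcium-binding protein and GATA2 a haematopoietic transcription factor.

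The counts over the gene lists that follow stand beside 41.9% of all tested probes called with LPS, 13.2% with TGFβ1 and 18.3% in LPS+TGFβ1 compared with LPS cells, and nothing particular to a list is read from them. Of 17 other receptors and bridging molecules for apoptotic cells on the array 13 were tested. With LPS 5 rose and 1 fell, or 46.2% of them. With TGFβ1 4 rose and 0 fell, and 3 rose and 2 fell in LPS+TGFβ1 cells compared with LPS cells. CD36, a scavenger receptor, rose by 2.32 ± 0.14 with LPS (adjusted p = 8.95e-16), and C1QB, a chain of the complement opsonin C1q, was at least 2.52-fold higher (adjusted p = 8.03e-10), since no PBS array had it above background. ITGAV, the αv integrin chain that binds MFGE8 bridges, rose by 1.21 ± 0.10 with TGFβ1 (adjusted p = 3.93e-11) and was 2.52 ± 0.10 higher in LPS+TGFβ1 cells than in LPS cells (adjusted p = 2.46e-19). CD300LF, a phosphatidylserine receptor, rose by 1.06 ± 0.13 with TGFβ1 (adjusted p = 8.92e-08) and was 0.85 ± 0.13 higher in LPS+TGFβ1 than in LPS cells (adjusted p = 5.4e-06). Relative to PBS, CD300LF was -0.89 ± 0.13 with LPS (adjusted p = 6.01e-07) and -0.03 ± 0.13 with LPS+TGFβ1 (adjusted p = 0.871). The median difference over the list was 0.08 with LPS and -0.01 with TGFβ1, beside 0.05 and -0.04 over all tested probes.

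Genes of the signalling that follows engulfment receptors were tested for 10 genes. Of these, 5 rose and 1 fell with LPS, 3 rose and 0 fell with TGFβ1, and 0 rose and 2 fell in LPS+TGFβ1 cells compared with LPS cells. SRC, a kinase recruited by MERTK, rose by 4.48 ± 0.19 with LPS (adjusted p = 6.28e-20) and by 1.90 ± 0.19 with TGFβ1 (adjusted p = 1.22e-09), and was -1.17 ± 0.19 in LPS+TGFβ1 relative to LPS cells (adjusted p = 1.64e-05). ABCA1, the cholesterol exporter used after engulfment, rose by 1.91 ± 0.51 with LPS (adjusted p = 0.00235). VAV1, an exchange factor for Rac, rose by 0.31 ± 0.09 with TGFβ1 (adjusted p = 0.0106), and ELMO2, a partner of DOCK1, was -0.37 ± 0.11 in LPS+TGFβ1 relative to LPS cells (adjusted p = 0.0155). The median over the list was 0.38 with LPS and 0.20 with TGFβ1.

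Genes that shed TAM receptors from the surface were measured because cleavage of AXL and MERTK by ADAM proteases releases soluble receptor. All 4 were tested: with LPS 2 rose and 1 fell, with TGFβ1 1 rose and 1 fell, and in LPS+TGFβ1 cells compared with LPS cells 0 rose and 1 fell. ADAM17, the main sheddase of MERTK, rose by 1.08 ± 0.13 with LPS (adjusted p = 8.46e-09). RHBDF2, the rhomboid partner that matures ADAM17, rose by 2.72 ± 0.16 with LPS (adjusted p = 3.43e-16) and by 0.97 ± 0.16 with TGFβ1 (adjusted p = 1.63e-05). TIMP3, an inhibitor of ADAM17, was -1.81 ± 0.28 with TGFβ1 relative to PBS (adjusted p = 6.66e-06) and -1.37 ± 0.28 in LPS+TGFβ1 relative to LPS cells (adjusted p = 0.000376). Over the 4 genes the median was 0.54 with LPS and 0.06 with TGFβ1. Soluble receptor was not measured.

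Of the genes that work with protein S in coagulation, 5 were tested, of which 2 rose with LPS, 2 rose with TGFβ1, and 2 rose and 2 fell in LPS+TGFβ1 cells compared with LPS cells. PROCR, the endothelial protein C receptor, rose by 1.75 ± 0.09 with TGFβ1 (adjusted p = 8.9e-17), by 0.62 ± 0.09 with LPS (adjusted p = 6e-07), and was 1.56 ± 0.09 higher in LPS+TGFβ1 than in LPS cells (adjusted p = 2.13e-15). THBD, thrombomodulin, rose by 1.22 ± 0.14 with LPS (adjusted p = 1.32e-08) and was -1.23 ± 0.14 in LPS+TGFβ1 relative to LPS cells (adjusted p = 6.15e-08). PROC, protein C itself, was at least 1.68-fold higher with TGFβ1 than with PBS, where no array had it above background (adjusted p = 1.98e-05). Its mean was 120 ± 87.8 (SD) on TGFβ1 arrays, and the log2 difference ran between 0.31 and 2.07 over the chips. The list's median was 0.12 with LPS and 0.06 with TGFβ1.

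AXL and MERTK act on cells through the type I interferon receptor and SOCS proteins. Of 7 tested genes of that route, 4 rose with LPS, 2 rose and 1 fell with TGFβ1, and 1 rose and 2 fell in LPS+TGFβ1 cells compared with LPS cells. IFNAR1, a chain of the receptor, rose by 1.20 ± 0.07 with LPS (adjusted p = 2.41e-15) and by 0.44 ± 0.07 with TGFβ1 (adjusted p = 3.51e-05). TYK2, a kinase of the receptor, rose by 1.10 ± 0.10 with LPS (adjusted p = 9.37e-11) and by 0.89 ± 0.10 with TGFβ1 (adjusted p = 4.16e-08). No PBS array had SOCS1, a feedback inhibitor, or SOCS3 above background. Compared with PBS, SOCS1 was at least 1.48-fold higher with LPS (adjusted p = 3.96e-09) and at least 1.17-fold higher with LPS+TGFβ1 (adjusted p = 1.81e-05). SOCS3 was at least 1.18-fold higher with LPS (adjusted p = 6.55e-06). In LPS+TGFβ1 relative to LPS cells SOCS1 was -0.34 ± 0.10 (adjusted p = 0.0175), and TWIST1, a repressor of cytokine genes, was -0.62 ± 0.11 (adjusted p = 6.47e-05). Over the 7 genes the median was 0.69 with LPS and 0.05 with TGFβ1.

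Nuclear receptors and other factors that drive efferocytosis genes, among them the liver X receptors, which are known to induce MERTK, were tested for 8 genes. With LPS 4 rose and 1 fell, with TGFβ1 2 rose and 0 fell, and in LPS+TGFβ1 cells compared with LPS cells 1 rose and 0 fell. NR1H3, liver X receptor alpha, rose by 1.24 ± 0.21 with LPS (adjusted p = 8.11e-06), and its difference ran between 0.19 and 2.13 over the chips. PPARD rose by 1.21 ± 0.15 with LPS (adjusted p = 4.64e-08) and 1.27 ± 0.15 with TGFβ1 (adjusted p = 7.6e-08), and was 0.64 ± 0.15 higher in LPS+TGFβ1 than in LPS cells (adjusted p = 0.00257). PPARG rose by 1.13 ± 0.16 with TGFβ1 (adjusted p = 2.57e-06). Over the 8 genes the median was 0.24 with LPS and 0.22 with TGFβ1.

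Cell type markers moved with the treatments too. Of 9 monocytic markers, 5 rose and 4 fell with LPS, and 3 rose and 1 fell with TGFβ1, relative to PBS, and 3 rose and 2 fell in LPS+TGFβ1 relative to LPS cells. CD14, the LPS co-receptor, rose by 5.06 ± 0.19 with LPS (adjusted p = 5.78e-21) and 1.94 ± 0.19 with TGFβ1 (adjusted p = 1.83e-09), and CSF1R by 1.70 ± 0.12 and 1.49 ± 0.12 (adjusted p = 1.3e-13 and 1.38e-11). In LPS+TGFβ1 relative to LPS cells FCGR1A was -0.88 ± 0.22 (adjusted p = 0.00349) and CSF3R was 0.78 ± 0.12 (adjusted p = 9.85e-06). The 4 that fell with LPS relative to PBS were CSF3R (-1.35), MPO (-1.29), LYZ (-1.23) and CEBPA (-0.28). The summed intensity of the list was 30184 to 33311 on LPS+TGFβ1 arrays, 22263 to 25475 on TGFβ1 arrays, 27954 to 35729 on LPS arrays and 13355 to 19596 on PBS arrays. Within these sums CD14 averaged 9036, 1299, 11314 and 308 in the same groups, and CSF1R 9101, 5453, 6441 and 1928. The sums therefore do not show a rise of every marker.

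Of 7 tested markers of other lineages 3 rose with LPS and 1 with TGFβ1, and 1 rose in LPS+TGFβ1 relative to LPS cells. Their summed intensity was 3664 to 5086 on LPS+TGFβ1 arrays, 3243 to 4396 on TGFβ1 arrays, 3208 to 3970 on LPS arrays and 1953 to 3036 on PBS arrays. NKG7, a granule protein of cytotoxic lymphocytes, averaged 1174 on LPS arrays and 513 on PBS arrays and rose by 1.16 ± 0.13 with LPS (adjusted p = 3.44e-09). PECAM1, an adhesion molecule of endothelium that monocytes also carry, rose by 0.88 ± 0.11 with TGFβ1 (adjusted p = 3.21e-07) and was 0.60 ± 0.11 higher in LPS+TGFβ1 than in LPS cells (adjusted p = 0.00018). VWF was at least 1.31-fold higher on LPS arrays, 4 of which measured it above background, than on PBS arrays, of which 0 did (adjusted p = 0.00526). CD3D, CD3E, COL1A1 and EPCAM passed background on no array. The part of these markers in the member differences was not tested.

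TAM receptors, AXL above all, are also known from Langerhans cells, whose AXL is induced by TGFβ1. The Langerhans cell marker CD207 passed background on 0 of 32 arrays, and CD1A on 4 LPS arrays and no other. Of 4 tested markers of Langerhans and dendritic cells, 2 rose and 1 fell with LPS, 0 rose and 1 fell with TGFβ1, and 0 rose and 3 fell in LPS+TGFβ1 relative to LPS cells. CD1A was at least 1.09-fold higher with LPS than with PBS (adjusted p = 0.00533), and on LPS arrays at least 1.10-fold above its level in LPS+TGFβ1 cells (adjusted p = 0.0103). FLT3, a cytokine receptor of dendritic cell precursors, was -1.85 ± 0.12 with LPS (adjusted p = 1.86e-14) and -0.91 ± 0.12 with TGFβ1 (adjusted p = 8.5e-07), both relative to PBS. The summed intensity of this list was 126 to 221 on LPS+TGFβ1 arrays, 228 to 483 on TGFβ1 arrays, 217 to 350 on LPS arrays and 448 to 926 on PBS arrays. The order of these sums is that of FLT3, which averaged 76.7, 293, 125 and 594 in the same groups. No other gene of the list averaged above 54.8 in any group, and the 2 that rose with LPS were CD1A and CD1C (0.46 and 0.43). The part of these markers in the AXL and MERTK differences was not tested.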

How the data were processed

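Expression was measured on 32 Illumina HumanRef-8 arrays, 1 per sample, grouped by the sample titles. The analysis started from deposited intensity values, 1 per probe and array on a linear scale. The submitters' processing notes name BeadStudio 3.2 but not what it did, and no source used here gives the background correction or normalization. Column medians ranged from 34.5 to 59.3 and the lowest value was -35.4, so centring and scale stay unknown. The 64 columns of a second, non-normalized table match no sample label and were not used.

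Probes in the lowest 25% of mean log2(intensity + 50) were left out, keeping 18388 of 24518, the 8 member probes among them. Every comparison used limma 3.58.1 under R 4.3.3: 1 fit to the 4 groups with lmFit and eBayes and no covariate, two-sided, with Benjamini-Hochberg adjustment per comparison. Background ended 3 SDs above the mode of an array's dim values, the SD being taken from their left side. Where no array of 1 group passed it, a fold is written "at least N-fold": the brighter group's mean log2 against the dim group's mean of the higher of the probe and the lowest signal above background. The method was tested on simulated data with independent noise on every array. That noise had no chips, sets or shared component, so the simulation does not cover them. The number of arrays limits precision.

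The members, the 11 gene lists and the tests were chosen with earlier results of these data known. Named were all member probes, the 5 genes most correlated with each member's brightest probe, and the 2 largest called changes of each list in 3 comparisons. Some other list genes and comparisons were added beside them. Genes were represented by their brightest probe. Alternatives changed the offset, filter, normalization, blocks, chips and arrays; the fit of chips 2 and 3 was added after the values were seen. Promoters came from RefSeq (GRCh38.p14).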

Additional observations from a re-analysis of the deposited data

Results flagged for a closer look

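On PBS arrays, TYRO3 of replicate 8 stood below the other arrays at 104, with a gap to the next array that was 0.527 of the group's whole range, just over the limit used for 8 arrays. Among the 32 combinations of member probe and group that were looked at, this was the 1 that passed, and chance passes about 1 in 20.

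The LPS effect differed between cells with and without TGFβ1 for 5 member probes by the limma interaction, as given above: by -1.95 and -1.80 for the AXL probes, by -0.96 and -0.94 for the 2 bright GAS6 probes, and by 0.40 for PROS1. For AXL the LPS effect was 0.41 in the presence of TGFβ1 and 2.36 in its absence and for GAS6 -0.89 with it and 0.05 without it. Within the sets of arrays, given as a description, the interaction stood for AXL at -2.35 in set 2 and -1.56 in set 1, and for GAS6 at -0.97 in set 2 and -0.80 in set 1.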

How the results depend on the processing

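Of 1112 repeats of a member probe's difference under alternatives other than leaving out 1 array, 923 kept their direction and their side of the threshold, 43 changed sign while past it in neither fit, 94 were no longer past it, 40 newly passed it and 12 changed direction with a call in at least 1 of the fits. These 12 lay within sets and chips. The counts include fits that used the sets, which were formed from these same values, so they are a description. The difference between TGFβ1 and LPS was -0.59, -0.57 and -0.53 for the GAS6 probes within set 1 and -0.71, -0.59 and -0.53 within chip 2, and for MERTK -0.38 within set 2 and -0.39 within chip 3. LPS compared with PBS was -0.27 and -0.30 for the bright GAS6 probes within set 2, TGFβ1 compared with PBS was -0.29 for ILMN_1779558 within chip 2, and LPS+TGFβ1 compared with TGFβ1 was 0.0076 for ILMN_1768260 within set 1.

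The number of member probes called moved as follows, with fewer arrays in the fits within a chip or set. For LPS compared with PBS it was 5 in all arrays and 1 within chips 1 and 4. For TGFβ1 compared with PBS it was 3, with 5 within chip 2 and 0 within chips 1 and 4. For LPS+TGFβ1 compared with PBS it was 8, with 3 within chips 1 and 4. For LPS+TGFβ1 compared with LPS it was 7, with 0 within chips 1 and 4 and 4 without chip 2 or 4. For LPS+TGFβ1 compared with TGFβ1 it was 6, with 0 within chip 1. For TGFβ1 compared with LPS it was 2, with 8 within chip 2, 6 within chip 3, 1 within chips 1 and 4, and 4 without chip 2. For the interaction it was 5, with 0 within chips 1 and 4, 2 without chip 1 or 3 and 3 without chip 4. The cause of these moves was not tested. Leaving out 1 array at a time gave 5 to 5, 3 to 3, 8 to 8, 5 to 7, 6 to 6, 2 to 3 and 4 to 5 in the same order.

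With the replicate number as a block, TGFβ1 compared with LPS called 4 member probes, and the other counts stayed within 1.5 times. Deviations of same-numbered arrays correlated at r over 0.1 in 44 of 48 pairs. This held for every pair between LPS+TGFβ1 and LPS (0.52 to 0.68) and between TGFβ1 and PBS (0.14 to 0.72). There the block changed no call of a member. It held for 7 of 8 pairs in each other comparison (lowest -0.20). The pair left over was always replicate 7, whose LPS and LPS+TGFβ1 arrays lay in set 1 and whose PBS and TGFβ1 arrays lay in set 2. Within these sets the replicate 7 pairs had r of 0.61 (LPS and LPS+TGFβ1) and 0.42 (PBS and TGFβ1). All other same-numbered arrays lay in the same set. What the correlation reflects was not tested. The labels name no shared source, and the block stays an alternative.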

Other observations

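The ligands need carboxylated glutamate, which the vitamin K cycle provides. Of 5 of its genes tested, 1 rose and 1 fell with LPS (41.9% of all tested probes were called), 1 rose with TGFβ1, and 1 rose in LPS+TGFβ1 relative to LPS cells. NQO1, a quinone reductase, rose by 1.41 ± 0.37 with LPS (limma adjusted p = 0.00201), and VKORC1, the vitamin K epoxide reductase, was -0.60 ± 0.20 (adjusted p = 0.0128). FURIN, the protease that removes propeptides, rose by 0.44 ± 0.14 with TGFβ1 (adjusted p = 0.0359) and was 0.56 ± 0.14 higher in LPS+TGFβ1 than in LPS cells (adjusted p = 0.00441). The list's median was 0.02 with LPS and 0.04 with TGFβ1.

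Phosphatidylserine is what both ligands bind, and 5 genes that control its exposure were tested. With LPS 2 rose and 2 fell, with TGFβ1 1 rose and 0 fell, and in LPS+TGFβ1 relative to LPS cells 2 rose and 0 fell. PLSCR1, a phospholipid scramblase, rose by 2.17 ± 0.26 with LPS (adjusted p = 1.27e-08). TMEM30A, the flippase subunit that keeps phosphatidylserine on the inner leaflet, was -1.06 ± 0.09 with LPS (adjusted p = 1.26e-11) and 0.27 ± 0.09 with TGFβ1 (adjusted p = 0.0439), and 0.53 ± 0.09 higher in LPS+TGFβ1 than in LPS cells (adjusted p = 5.09e-05). ANO6, a calcium-activated scramblase, was the other gene that fell with LPS (-0.44 ± 0.06, adjusted p = 3.29e-07). It was 0.18 ± 0.06 higher in LPS+TGFβ1 than in LPS cells (adjusted p = 0.0416) but still -0.26 ± 0.06 relative to PBS (adjusted p = 0.000639). The list's median was 0.09 with LPS and 0.13 with TGFβ1.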
